A study of Mus musculus with 18 samples.

Results

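AMPA receptors are the ligand-gated cation channels that carry most of the fast excitatory transmission in the brain. The 10 genes described here encode their 4 pore-forming subunits, *Gria1* to *Gria4* (GluA1 to GluA4), and 6 auxiliary proteins, *Cacng2*, *Cacng3*, *Cacng8*, *Cnih2*, *Shisa6* and *Shisa9*. They were chosen by symbol, and all 10 were found among the 53468 genes of the count table and passed the filter on low counts. In GRCm38 the subunit genes lie at chr11:57011387-57330244 (*Gria1*), chr3:80681450-80802835 (*Gria2*), chrX:41400854-41678601 (*Gria3*) and chr9:4417896-4796234 (*Gria4*), and the auxiliary genes at chr15:77991748-78120028 (*Cacng2*), chr7:122670492-122769393 (*Cacng3*), chr7:3390683-3415648 (*Cacng8*), chr19:5092868-5098521 (*Cnih2*), chr11:66211725-66525964 (*Shisa6*) and chr16:11984113-12270902 (*Shisa9*). Their counts per library lay between 134 (*Cacng3*, hindbrain) and 18133 (*Gria2*).

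Which subunits a receptor holds sets its conductance, its kinetics and its permeability to calcium, which is low where edited GluA2 is present. GluA1 and GluA4 are known to support receptors without GluA2, for instance in Bergmann glia of the cerebellum and in some interneurons. The auxiliary proteins attach to the channel and alter its trafficking and gating. They are the transmembrane AMPA receptor regulatory proteins (TARPs), with stargazin (*Cacng2*) as their founding member, the cornichon homologue *Cnih2*, and the Shisa proteins, also called CKAMPs.

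Poly(A) RNA was sequenced from forebrain, midbrain and hindbrain of 6 mice of one litter on postnatal day 25, giving 18 libraries with total counts between 22455512 and 28061185. All mice had a C57BL/6 background. Of these mice, 3 were wild-type (WT) and 3 carried Fmr1CRE, a single-base substitution in a conserved non-coding element near *Fmr1* that was introduced by CRISPR/Cas9 into the germ line and so is present in every tissue. The edited line or lines from which these mice came are not named in the sources used here. The comparisons between regions ask how the mRNA levels of these genes differ along the brain axis, with 6 libraries per region and both genotypes together, and those between genotypes ask whether the variant alters these genes, with 3 mice against 3 in each region. Levels are given as counts per library scaled to a common total (CPM) after TMM normalization, and differences as log2 fold changes with the standard error (SE) and the p-value of edgeR's quasi-likelihood test adjusted over all genes tested, with calls at 0.05.

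The libraries carried the regional markers of their labels. Summed over 10 forebrain markers, CPM ran from 513 to 855 in forebrain, 236 to 428 in midbrain and 59.9 to 97.0 in hindbrain, while over 12 hindbrain markers it ran from 3.63 to 26.8, 117 to 312 and 452 to 962. The midbrain libraries therefore held forebrain and hindbrain markers at intermediate levels. Of the forebrain markers, 5 of 10 were called higher in forebrain than in midbrain (median log2 fold change 0.68). Between midbrain and hindbrain 9 of 10 were higher in midbrain (median 5.02). Of 10 midbrain markers, 10 were lower in forebrain than in midbrain, and 8 were higher and 1 lower in midbrain than in hindbrain. Some libraries stood apart. Forebrain of Fmr1CRE replicate 1 had the lowest sum of 6 excitatory neuron markers, 2471 CPM against a forebrain median of 4329, and midbrain of the same mouse the lowest in midbrain, 1648 against a median of 2794. Fmr1CRE replicate 3 and WT replicate 3 differed by at least 1 on the log2 scale, with one sign in both midbrain and hindbrain, at 215 genes, of which 33.0% ran that way in forebrain too, against 40.9 to 58.5% for the other 8 pairs of mice. Whether these forebrain libraries were exchanged between the 2 mice was not tested. An exchange would alter each genotype value in forebrain, and these values are therefore given with and without the replicate 3 libraries. It would also alter the test of genotype by region and those that sum, pair or leave out libraries by mouse. Over the 18 libraries *Fmr1* lay between 51.1 and 83.4 CPM, and its genotype difference was 0.00 in forebrain, 0.01 in midbrain and 0.15 in hindbrain on the log2 scale, with edgeR adjusted p of 0.996, 0.995 and 0.906. Its level gave no check of the genotype labels.

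Every *Gria* gene has a pair of neighbouring exons of 115 bases, of which a complete coding transcript normally holds one. The first is called flop and the second flip. They encode a stretch of the ligand-binding domain beside the last membrane segment, and flip and flop receptors are known to differ in desensitization. The exons of *Gria1* and *Gria4* are shown because the forms of these genes differed most between regions. Each is written 5′ to 3′ on the coding strand of GRCm38, from the transcripts of GENCODE M21, with the bases that differ between flop and flip in capitals. *Gria1* lies on the forward strand, with flop at chr11:57309769-57309883 and flip at chr11:57310608-57310722. *Gria4* lies on the reverse strand, with flop at chr9:4432773-4432887 and flip at chr9:4427030-4427144.
Gria1 flop: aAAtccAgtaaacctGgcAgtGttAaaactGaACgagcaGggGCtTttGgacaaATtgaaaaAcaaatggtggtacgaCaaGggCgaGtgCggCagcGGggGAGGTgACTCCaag
Gria1 flip: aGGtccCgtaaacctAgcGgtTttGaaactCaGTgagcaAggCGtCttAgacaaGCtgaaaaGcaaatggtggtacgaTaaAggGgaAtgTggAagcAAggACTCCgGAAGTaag
Gria4 flop: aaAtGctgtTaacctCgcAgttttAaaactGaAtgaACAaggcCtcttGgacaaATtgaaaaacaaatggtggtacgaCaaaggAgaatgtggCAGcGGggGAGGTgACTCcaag
Gria4 flip: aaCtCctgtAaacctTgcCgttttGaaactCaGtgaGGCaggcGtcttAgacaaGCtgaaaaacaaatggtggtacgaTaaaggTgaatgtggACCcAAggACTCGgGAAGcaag
The exons of a pair shared 79 of 115 bases in *Gria1* and in *Gria2*, 83 in *Gria3* and 84 in *Gria4*. The forms of *Gria1* thus differed at 36 positions and those of *Gria4* at 31.

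The mRNA levels of the subunits and auxiliary proteins differed along the brain axis. From hindbrain to forebrain *Gria2* and *Gria3* were higher and *Gria4* was lower, and of the auxiliary genes *Cacng3*, *Cnih2*, *Cacng8* and *Shisa9* were higher in forebrain and midbrain, by up to 9.79 times in mean CPM. Between forebrain and hindbrain 10 of the 10 genes passed the test, 6 of them higher in forebrain and 4 lower. Such calls were common in this comparison, at 51.7% of the 20363 genes tested (26.4% higher, 25.3% lower). Between midbrain and hindbrain 8 of the 10 were called, 7 higher in midbrain and 1 lower, against 49.1% of all genes (25.1% higher, 24.0% lower). Between forebrain and midbrain 6 were called, 3 higher in forebrain and 3 lower, against 19.3% of all genes (9.38% higher, 9.96% lower).

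**Figure D1:**
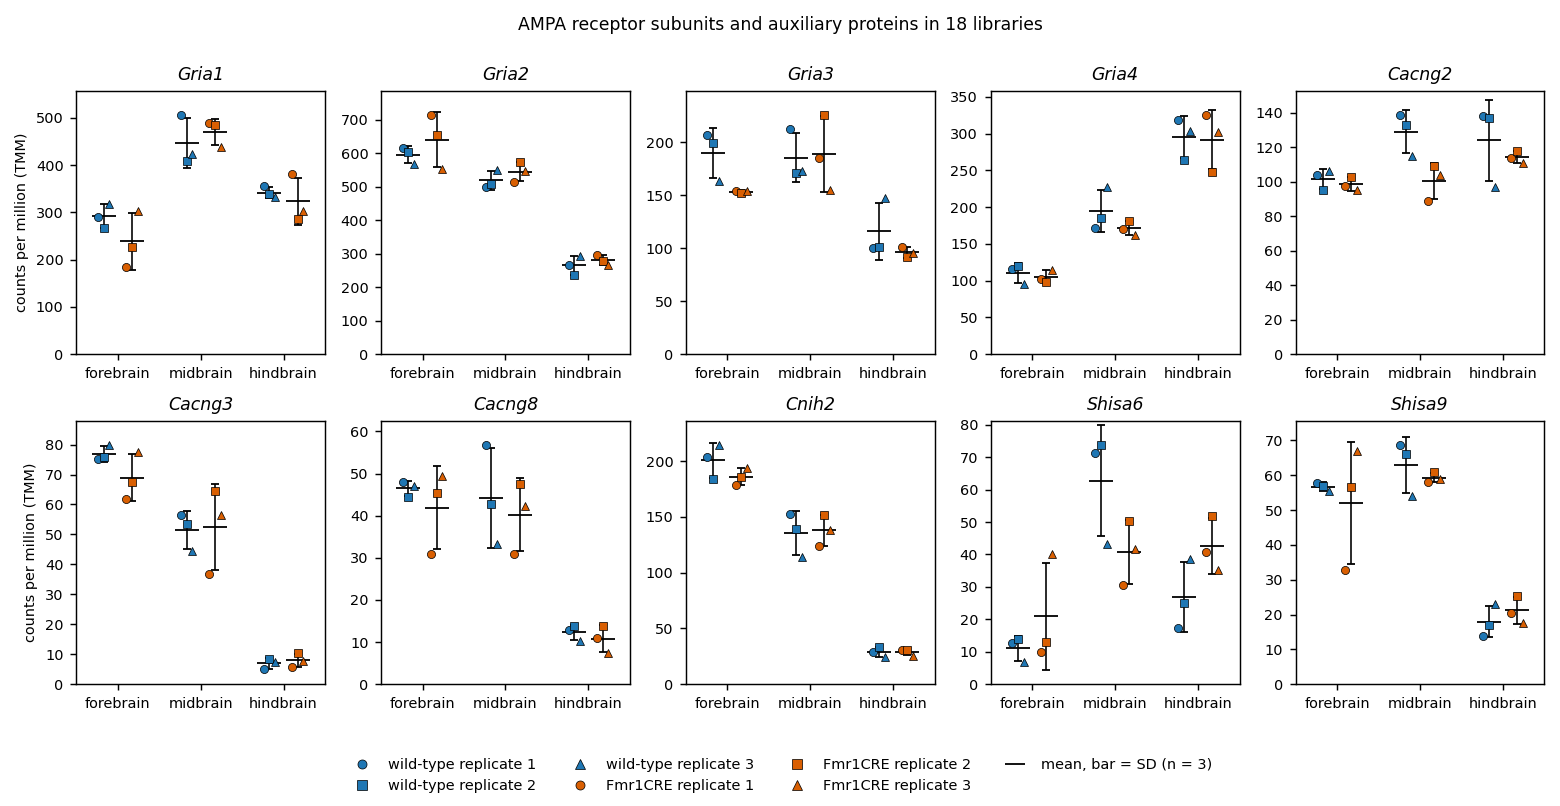
Level of each of the 10 genes in 18 libraries, in TMM-scaled CPM on linear axes from 0, by region and genotype, with 1 point per library and the mean ± SD of 3 mice. *Gria4* rises and *Gria2*, *Cacng3*, *Cacng8*, *Cnih2* and *Shisa9* fall from forebrain to hindbrain, and *Shisa6* holds 1 forebrain library, Fmr1CRE replicate 3, at 40.0 CPM beside 5 between 6.73 and 13.8.

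Among the pore-forming subunits, *Gria2*, which encodes the subunit that limits calcium entry, had a lowest, median and highest level of 552, 610 and 716 CPM in forebrain, 499, 532 and 573 in midbrain and 236, 273 and 296 in hindbrain. Hindbrain was below both other regions in every library, while forebrain and midbrain overlapped. The log2 fold change was 1.18 ± 0.07 (SE) for forebrain against hindbrain (edgeR adjusted p = 2.1e-09) and 0.96 ± 0.07 for midbrain against hindbrain (edgeR adjusted p = 4.5e-08). The difference between forebrain and midbrain was 0.21 ± 0.07 (edgeR adjusted p = 0.0496), close to the threshold. It was not called with the mouse as a block (adjusted p = 0.0520), and was called in 5 of 16 alternatives, whose adjusted p ran from 0.0115 to 0.264. Leaving out any of 4 mice (Fmr1CRE replicates 1 and 2, WT replicates 1 and 2) ended the call (adjusted p 0.136 to 0.234). On the TPM scale of the transcript files, which is not TMM-scaled, the mean of *Gria2* was 54.0 in forebrain and 59.1 in midbrain.

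*Gria4*, the subunit of fast receptors in the cerebellum and brainstem, ran the other way. It lay at 95.7, 109 and 120 CPM in forebrain, 162, 177 and 227 in midbrain and 248, 303 and 326 in hindbrain, so that no library of one region overlapped with another. Its log2 fold change was -1.45 ± 0.09 (SE) for forebrain against hindbrain (edgeR adjusted p = 3.0e-09), -0.76 ± 0.09 for forebrain against midbrain (edgeR adjusted p = 4.3e-05) and -0.69 ± 0.09 for midbrain against hindbrain (edgeR adjusted p = 1.8e-05). *Gria4* thus stepped up from region to region. Differences larger than that between forebrain and hindbrain were found in 12% of all genes tested.

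*Gria1*, abundant in cortical and hippocampal pyramidal neurons and in Bergmann glia, was highest in midbrain. Its lowest, median and highest levels were 409, 461 and 507 CPM there, 185, 278 and 318 in forebrain and 287, 335 and 381 in hindbrain. Midbrain exceeded forebrain by 0.80 ± 0.11 on the log2 scale (forebrain against midbrain -0.80, edgeR adjusted p = 0.000129) and hindbrain by 0.46 ± 0.11 (edgeR adjusted p = 0.00234), without overlap. By the estimated reads of all transcripts, midbrain and hindbrain libraries overlapped, with a difference of 0.40 (edgeR adjusted p = 0.00308). With Fmr1CRE libraries only, midbrain against hindbrain was not called (0.50, edgeR adjusted p = 0.0640). Forebrain and hindbrain libraries overlapped, and the difference of -0.33 ± 0.11 (edgeR adjusted p = 0.0168) was lost without Fmr1CRE replicate 1 (-0.19, adjusted p = 0.122), without WT replicate 1 or WT replicate 2 (adjusted p = 0.0653 and 0.0617), and when the estimated reads of all transcripts were summed in place of the deposited counts (-0.14, adjusted p = 0.254). Over 16 alternatives the adjusted p ran from 0.000587 to 0.254.

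*Gria3*, the X-linked subunit, was at 152, 158 and 207 CPM in forebrain, 155, 179 and 226 in midbrain and 91.4, 101 and 147 in hindbrain. Hindbrain lay below both other regions in every library. The log2 fold change was 0.69 ± 0.11 (SE) for forebrain against hindbrain (edgeR adjusted p = 8.2e-05) and 0.82 ± 0.11 for midbrain against hindbrain (edgeR adjusted p = 2.1e-05). Between forebrain and midbrain it was -0.13 with a 95% confidence interval of -0.37 to 0.10 and was not called (edgeR adjusted p = 0.445).

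**Figure D2:**
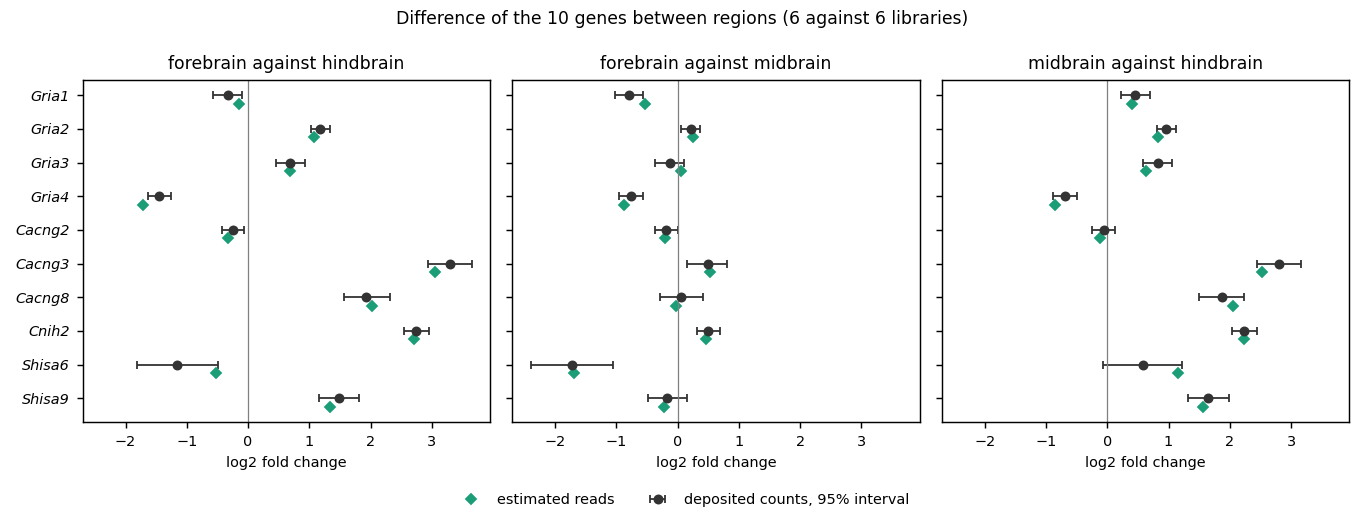
Log2 fold change of the 10 genes in each pair of regions (6 against 6 libraries), as the edgeR estimate on the deposited counts with its 95% confidence interval (circles) and on the estimated reads summed per gene (diamonds). *Cacng3* and *Cnih2* have the largest differences to hindbrain, at 3.29 and 2.74 from forebrain, and the diamonds of *Shisa6* in forebrain against hindbrain (-0.53) and in midbrain against hindbrain (1.16) lie farthest from their circles.

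How the genes were counted bears on these values. The deposited counts are the TPM of each gene scaled by its mean transcript length, so that short transcripts weigh more than their reads. Partial transcripts under 1000 bases took 56.4 to 91.4% of the TPM of *Shisa6* per library but 0.768 to 6.46% of its reads, 14.1 to 48.0% of the TPM of *Gria1* but 0.180 to 1.38% of its reads, and 31.9 to 67.5% of the TPM of *Cacng3* but 9.25 to 27.7% of its reads. *Gria3* reached 33.5% of TPM and 0.962% of reads, *Cacng8* 28.4 and 4.76%, and *Shisa9* 4.27 and 0.50%. *Gria2*, *Gria4*, *Cacng2* and *Cnih2* have no such transcript. With the estimated reads, 9 of the 10 genes were called between forebrain and hindbrain, 6 between forebrain and midbrain and 9 between midbrain and hindbrain, against 60.7, 28.2 and 58.3% of all genes tested.

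Each subunit's share of the summed per-length level of the 4 subunits describes the composition of the subunit mRNA. Here a gene's count was divided by its mean effective length over the 18 libraries, and the regions were compared with two-sided exact permutation tests of 6 against 6 libraries, adjusted over 12 comparisons. *Gria2* made up 46.6% ± 5.41 (SD, n = 6) in forebrain, 32.9% ± 1.93 in midbrain and 22.1% ± 1.78 in hindbrain. Libraries lay at 42.4 to 55.4%, 29.9 to 35.5% and 20.3 to 25.3%. *Gria4* rose in the same order from 10.8% ± 0.820 to 15.0% ± 1.95 and 31.5% ± 1.61. None of these ranges overlapped, and each of the 6 comparisons had the smallest p the exact test allows, 0.00216 (adjusted p = 0.00289).

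*Gria3* held 16.1% ± 1.71 (SD, n = 6) in forebrain, 14.4% ± 1.44 in midbrain and 10.7% ± 1.67 in hindbrain. Its share was above that of hindbrain in forebrain (exact permutation test, adjusted p = 0.00289) and in midbrain (adjusted p = 0.00779) but was not distinguished between the first 2 regions (adjusted p = 0.111). With the test paired by mouse the midbrain difference of 3.69 percentage points was not called. *Gria1* held 26.5% ± 4.81 in forebrain, 37.7% ± 2.32 in midbrain and 35.8% ± 2.14 in hindbrain. Its forebrain share was below both others (exact permutation test, adjusted p = 0.00289), while midbrain and hindbrain overlapped (adjusted p = 0.167). In all, 10 of the 12 comparisons passed, and the same number did whichever mouse was left out.

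Which subunit ranked first depended on the transcripts counted. Over all transcripts *Gria2* had the largest share in forebrain and *Gria1* in midbrain and hindbrain. When only transcripts of at least 1000 bases were counted, *Gria1* fell to 21.2% in forebrain, 27.7% in midbrain and 25.8% in hindbrain. *Gria2* then led in forebrain and midbrain, with 51.1 and 40.0%, and *Gria4* led in hindbrain with 37.1%, with *Gria2* at 26.1%. The directions between regions stayed as given above, and 11 of 12 comparisons were called. The *Gria1* differences were smaller. Forebrain against hindbrain went from -9.23 to -4.59 percentage points, with overlapping libraries (exact permutation test, adjusted p = 0.0236). Forebrain against midbrain went from -11.1 to -6.49.

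**Figure D3:**
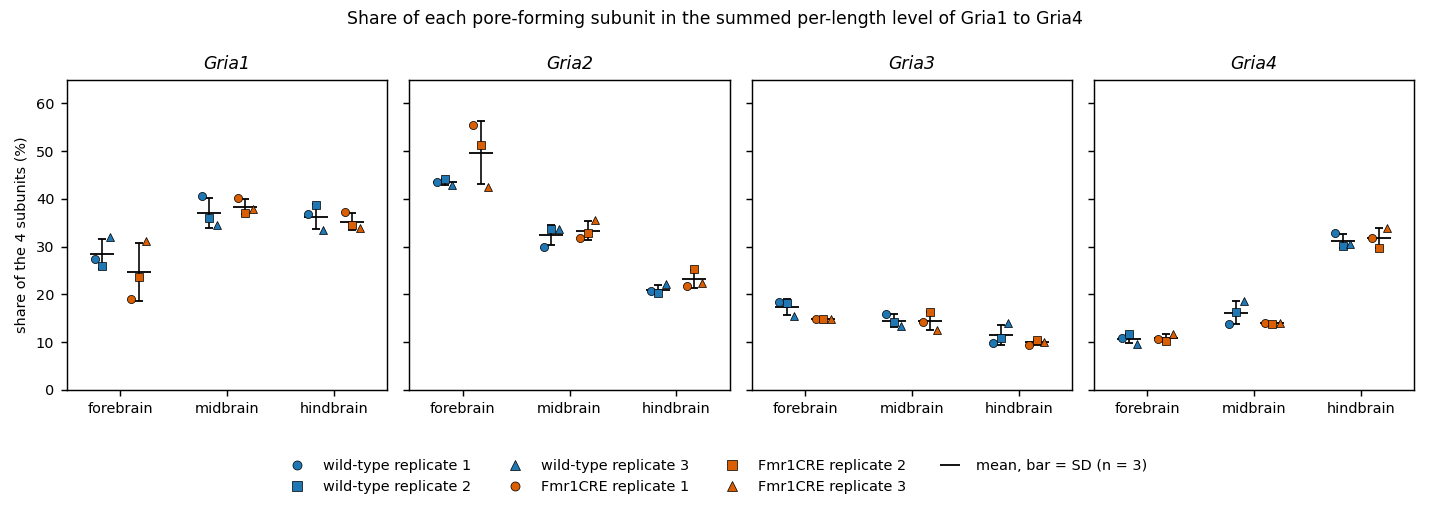
Share of each of *Gria1* to *Gria4* in the summed per-length level of the 4 subunits, in percent, per library by region and genotype, with the mean ± SD of 3 mice. The *Gria2* share falls from 42.4 to 55.4% in forebrain to 20.3 to 25.3% in hindbrain, and the *Gria4* share rises from 9.61 to 11.7% to 29.8 to 33.8%.

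The flip share is the TPM of a gene's flip transcripts over that of its flip and flop transcripts. Its regional differences were the largest for *Gria1*, whose forms are 3 transcripts of 5361 to 5546 bases that took 98.6 to 99.8% of the gene's reads, 6172 to 12729 reads per library. Outside the pair of exons these transcripts differ as well. The flop transcript holds 0 and 163 bases that the flip transcripts lack, and these hold 147 and 125 bases that it lacks. The flip share of *Gria1* was 47.3, 51.0 and 52.6% (lowest, median and highest of 6 libraries) in forebrain, 50.2, 52.3 and 60.1% in midbrain and 82.1, 84.1 and 89.6% in hindbrain. Forebrain and midbrain thus held the annotated flip and flop transcripts at similar levels, and hindbrain mostly the flip transcripts. Differences in the exon pair and in the bases outside it cannot be told apart in these shares. The difference between forebrain and hindbrain was -34.4 percentage points and that between midbrain and hindbrain -31.1 (exact permutation test, p = 0.00216, adjusted over 12 comparisons 0.00371). The forebrain and midbrain libraries overlapped, with a difference of -3.34 (adjusted p = 0.125).

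*Gria4* moved in the same direction through all regions. Its flip share was 31.5, 41.1 and 44.4% in forebrain, 55.9, 58.5 and 62.3% in midbrain and 60.5, 68.5 and 74.1% in hindbrain. Annotated flop transcripts thus prevailed in forebrain and flip transcripts in the other regions, in every library. All 3 comparisons were called, with differences of -28.6 points (forebrain against hindbrain), -19.6 (forebrain against midbrain, both with an exact permutation adjusted p of 0.00371) and -8.98 (midbrain against hindbrain, adjusted p = 0.00974), the last with overlapping libraries. These transcripts took 68.4 to 88.1% of the reads of *Gria4*, 1647 to 8290 per library. Outside the pair of exons its flip and flop transcripts each hold between 3 and 301 bases that the other lacks. Here too the exon pair and these other bases cannot be told apart.

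*Gria2* went the other way, with a flip share of 63.2% ± 2.03 (SD, n = 6) in forebrain, 64.1% ± 2.55 in midbrain and 50.4% ± 3.96 in hindbrain (adjusted p = 0.00371 for both differences to hindbrain, and 0.554 between forebrain and midbrain, exact permutation test). The annotated flop transcript of *Gria2* has 10371 bases and the flip transcript 4026, and 6345 bases outside the pair of exons are found only in the former. A difference in the length of the 3′ end and one in flip against flop therefore cannot be told apart here. By estimated reads the shares were 42.6, 43.8 and 30.6%. The flip and flop transcripts took 75.3 to 87.3% of the reads of *Gria2*. In *Gria3* flip made up 98.6% ± 1.29, 94.7% ± 3.00 and 98.0% ± 1.91 of flip and flop TPM. These rested on 19.4 to 50.3% of the gene's reads. *Gria3*-206, a transcript annotated for nonsense-mediated decay, holds both exons and was counted as neither form, as were the retained-intron transcripts of the gene. The flip transcript of *Gria3* has 5192 bases and the flop transcripts 3081 and 2667. Outside the pair of exons, 2241 and 2525 bases of the flip transcript are absent from these flop transcripts. In *Gria3* too, flip against flop and other differences between the transcripts therefore cannot be told apart. The midbrain share was below forebrain (exact permutation test, adjusted p = 0.00371). Its difference to hindbrain of -3.30 percentage points (exact permutation test, adjusted p = 0.0462) was not called with the test paired by mouse (adjusted p = 0.125) or when any mouse but Fmr1CRE replicate 2 was left out, with a difference of -1.76 without WT replicate 2. By genotype it was -6.03 in wild-type and -0.570 in Fmr1CRE mice.

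**Figure D4:**
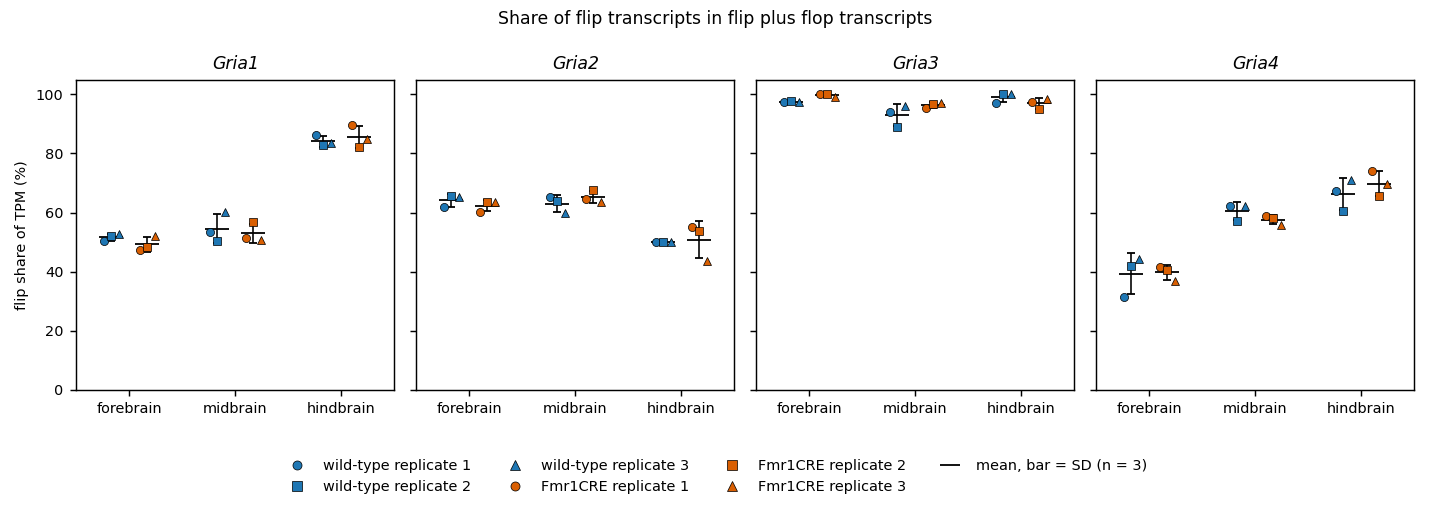
Flip share of flip plus flop TPM, in percent, for *Gria1* to *Gria4*, per library by region and genotype, with the mean ± SD of 3 mice. In *Gria1* the hindbrain libraries lie at 82.1 to 89.6%, above all others at 47.3 to 60.1%, and in *Gria4* the share climbs from forebrain to hindbrain.

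The transcript files were tied to the gene-count columns by their values, since their names and their sample records disagree (16 of 18 records name another library). With the library of the sample record instead, 0 of the 12 flip comparisons between regions were called. The region order of the flip shares thus rests on that match, in which each file rebuilt 1 column within 1 count for at least 98.3% of genes and any other column for at most 55.8%.

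Of the auxiliary genes, the largest differences were those of *Cacng3*, the TARP gamma-3 of cortical neurons. It lay at 61.9, 75.4 and 80.0 CPM in forebrain, 36.7, 54.9 and 64.6 in midbrain and 4.97, 7.57 and 10.3 in hindbrain. The mean was 9.79 times that of hindbrain in forebrain and 6.98 times in midbrain, without overlap. On the log2 scale this was 3.29 ± 0.17 (SE, edgeR adjusted p = 2.2e-10) and 2.80 ± 0.17 (edgeR adjusted p = 2.8e-09), and 2.61 and 2.20% of all genes differed by more. Between forebrain and midbrain the difference of 0.49 ± 0.15 (edgeR adjusted p = 0.0358) was lost when any mouse but Fmr1CRE replicate 2 was left out (adjusted p 0.0546 to 0.137, range over 16 alternatives 0.00260 to 0.333).

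*Cnih2*, whose product slows deactivation of the receptor and promotes its export to the surface, was at 179, 190 and 215 CPM in forebrain, 114, 139 and 153 in midbrain and 24.7, 29.4 and 33.3 in hindbrain. The regions did not overlap. Its log2 fold change was 2.74 ± 0.10 (SE) for forebrain against hindbrain (edgeR adjusted p = 4.5e-12), 2.24 ± 0.10 for midbrain against hindbrain (edgeR adjusted p = 7.9e-11) and 0.50 ± 0.09 for forebrain against midbrain (edgeR adjusted p = 0.00115).

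*Cacng8*, the TARP gamma-8 that is abundant in hippocampus, lay at 30.8, 46.2 and 49.5 CPM in forebrain, 30.8, 42.5 and 56.9 in midbrain and 7.45, 11.9 and 13.9 in hindbrain. It exceeded hindbrain by 1.93 ± 0.18 in forebrain (edgeR adjusted p = 1.6e-07) and 1.87 ± 0.18 in midbrain (edgeR adjusted p = 4.2e-07) on the log2 scale. Forebrain and midbrain overlapped, with a log2 fold change of 0.06 and a 95% interval of -0.29 to 0.42 (edgeR adjusted p = 0.835). *Shisa9* (CKAMP44), a modulator of desensitization known from dentate granule cells, had a like pattern, with 32.8, 56.7 and 66.9 CPM in forebrain, 53.9, 59.9 and 68.8 in midbrain and 13.9, 19.1 and 25.3 in hindbrain. Its log2 fold change was 1.48 ± 0.16 for forebrain against hindbrain (edgeR adjusted p = 9.0e-07), 1.65 ± 0.16 for midbrain against hindbrain (edgeR adjusted p = 5.1e-07) and -0.17, with an interval of -0.49 to 0.15, between forebrain and midbrain. In both genes the lowest forebrain value was that of Fmr1CRE replicate 1.

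*Cacng2* (stargazin), best known for receptor delivery in cerebellar granule cells, was the most even of the 10, at 95.1, 101 and 106 CPM in forebrain, 88.8, 112 and 139 in midbrain and 97.0, 116 and 138 in hindbrain. All regions overlapped. The forebrain against hindbrain difference of -0.25 ± 0.09 (SE, edgeR adjusted p = 0.0269) was called, but not when any mouse except WT replicate 3 was left out (adjusted p 0.0638 to 0.186, range over 16 alternatives 0.00148 to 0.186). Differences larger than this were found in 67.4% of all genes. The other pairs of regions differed by -0.19 (forebrain against midbrain, 95% interval -0.37 to 0.00) and -0.06 (midbrain against hindbrain, interval -0.25 to 0.13) and were not called.

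*Shisa6* (CKAMP52), which is known to hold receptors at the postsynaptic density, had its highest median in midbrain. By deposited counts it lay at 6.73, 12.8 and 40.0 CPM in forebrain, 30.5, 46.7 and 73.9 in midbrain and 17.4, 36.9 and 52.0 in hindbrain. Midbrain and hindbrain overlapped, and forebrain overlapped with them through 1 library, Fmr1CRE replicate 3. The log2 fold change was -1.73 ± 0.32 (SE) for forebrain against midbrain (edgeR adjusted p = 0.00128), -1.16 ± 0.31 for forebrain against hindbrain (edgeR adjusted p = 0.00569) and 0.58 ± 0.31 for midbrain against hindbrain (edgeR adjusted p = 0.132). Its forebrain difference to midbrain was exceeded by 2.16% of all genes. With Fmr1CRE libraries only, that difference was not called (-0.97, edgeR adjusted p = 0.240). Midbrain against hindbrain was 1.21 with wild-type libraries only (edgeR adjusted p = 0.0173) and -0.10 with Fmr1CRE libraries only. By estimated reads, which give the short transcript little weight, the midbrain libraries (29.8 to 75.9 CPM) were above those of hindbrain (17.1 to 26.5) and forebrain (11.5 to 23.7), and the midbrain against hindbrain difference of 1.16 was called (adjusted p = 7.8e-05, range over 16 alternatives 7.8e-05 to 0.889).

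Levels of different genes can be compared per length, as TPM. In forebrain *Cnih2* (mean 56.1 TPM ± 7.70, SD, n = 6) and *Gria2* (54.0 ± 6.60) stood at the top and did not differ beyond their spread, followed by *Gria1* (31.0 ± 7.28), *Gria3* (18.9 ± 4.33), *Cacng3* (17.2 ± 2.53), *Gria4* (12.6 ± 2.09), *Cacng8* (8.94 ± 1.92), *Cacng2* (6.45 ± 0.779), *Shisa9* (6.00 ± 1.54) and *Shisa6* (5.17 ± 3.97). From *Gria1* downward the libraries of each gene overlapped with those of the next. In hindbrain *Gria1* (41.7 ± 3.10) and *Gria4* (36.7 ± 1.90) led with overlapping libraries, ahead of *Gria2* (25.8 ± 3.32), *Gria3* (12.5 ± 2.18) and *Shisa6* (12.3 ± 5.38). *Cnih2* (9.07 ± 1.57) and *Cacng2* (8.29 ± 1.35) were next, within their spread, and *Cacng8* (2.54 ± 0.721), *Shisa9* (2.35 ± 0.705) and *Cacng3* (1.93 ± 0.687) were last. In mean TPM *Cacng2* was above *Cacng8* and *Cacng3* in hindbrain and below both in forebrain. The TPM of *Gria1*, *Cacng3* and *Shisa6* includes the short transcripts described above.

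The markers of several cell types moved with the regions. Over 6 excitatory neuron markers the summed CPM was 2471 to 6089 in forebrain, 1648 to 3239 in midbrain and 192 to 298 in hindbrain. Of these markers, 6 of 6 were higher in forebrain than in hindbrain, and 2 of 6 were higher in forebrain than in midbrain (median log2 fold change 0.41). In the other direction, 7 cerebellar granule neuron markers summed to 143 to 205, 357 to 717 and 788 to 1634 CPM, and 7 of 7 were lower in forebrain than in hindbrain. Over 6 Purkinje cell markers the sums were 493 to 796, 901 to 1754 and 1436 to 2876 (5 of 6 lower), over 4 Bergmann glia markers 207 to 272, 297 to 389 and 642 to 837 (3 of 4 lower, 1 higher), and over 7 oligodendrocyte markers 12914 to 16469, 17026 to 20252 and 29612 to 41556 (7 of 7 lower). None of these markers was at 0 in every library of a region. Other lists did not all follow the axis. In forebrain against hindbrain, 3 of 7 pan-neuronal markers were higher and 3 lower, and of 6 inhibitory neuron markers 3 were higher and 1 lower. Of 7 astrocyte markers 2 were higher and 3 lower, and of 6 microglia markers 6 were higher. Of 7 hippocampal markers, 0 were higher and 3 lower in forebrain than in midbrain (median log2 fold change -0.60). In midbrain against hindbrain 6 were higher and 0 lower (median 2.09), and in forebrain against hindbrain 4 were higher and 1 lower (median 1.78). In tissue of mixed cells, fewer cells of a type and less RNA per cell cannot be told apart, and the part of cell composition in the values above was not tested.

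Genes that handle AMPA receptors outside the complex were examined in the same way. Of 21 genes for anchoring, clustering and trafficking, 16 were higher and 2 lower in forebrain than in hindbrain (median log2 fold change 1.02, against -0.01 over all genes tested), and 17 were higher and 2 lower in midbrain than in hindbrain (median 0.98, against -0.03). Between forebrain and midbrain 4 were higher and 3 lower (median 0.08, against 0.02). Of all genes tested, 51.7% were called between forebrain and hindbrain, 49.1% between midbrain and hindbrain and 19.3% between forebrain and midbrain, also for the lists that follow. The leading genes in forebrain over hindbrain were *Arc*, an activity-induced gene that promotes receptor endocytosis (3.47 ± 0.62 SE, edgeR adjusted p = 0.000204), *Akap5*, a scaffold for kinases and phosphatases (3.35 ± 0.15, edgeR adjusted p = 3.8e-11), and *Nptx2*, a secreted pentraxin that clusters receptors (3.02 ± 0.15, edgeR adjusted p = 1.4e-10). In midbrain over hindbrain they were *Nptxr* (2.76 ± 0.22, edgeR adjusted p = 6.0e-08), *Nptx2* (2.65 ± 0.15) and *Akap5* (2.55 ± 0.14). *Arc* ran from 26.9 to 293 CPM within forebrain, where the sum of 12 immediate early genes ran from 186 to 887 and was lowest in Fmr1CRE replicate 3. *Nsg1*, a neuronal endosomal protein, was lower in forebrain than in hindbrain (-0.85 ± 0.11, edgeR adjusted p = 7.9e-06), and *Nsf*, the vesicle fusion ATPase that binds GluA2 (-0.74 ± 0.14, edgeR adjusted p = 0.00190), and *Nptx1* (-0.56 ± 0.13, edgeR adjusted p = 0.00645) were lower in forebrain than in midbrain.

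Of 11 further auxiliary genes, 6 were higher and 2 lower in forebrain than in hindbrain (median 0.64), 2 higher and 2 lower in forebrain than in midbrain (median 0.10), and 4 higher and 2 lower in midbrain than in hindbrain (median 0.32). *Shisa8* was lower in the more anterior region of each pair, by -1.63 ± 0.19 (SE) from forebrain to hindbrain (edgeR adjusted p = 2.3e-06), -0.85 ± 0.19 from forebrain to midbrain (edgeR adjusted p = 0.00484) and -0.78 ± 0.18 from midbrain to hindbrain (edgeR adjusted p = 0.00213). *Syndig1l* (1.82 ± 0.17, edgeR adjusted p = 2.4e-06) and *Gsg1l* (0.73 ± 0.12, edgeR adjusted p = 0.000433) were higher in forebrain than in midbrain, as was *Akap5* of the anchoring genes (0.81 ± 0.13). *Syndig1* was lower in midbrain than in hindbrain (-0.73 ± 0.09, edgeR adjusted p = 7.5e-06). The 9 genes for assembly, editing and biogenesis split evenly, with 4 higher and 4 lower in forebrain than in hindbrain (median 0.12), 0 higher and 2 lower in forebrain than in midbrain (median 0.00), and 4 higher and 3 lower in midbrain than in hindbrain (median 0.06). *Adarb1*, which encodes the enzyme that edits the *Gria2* transcript, was among those higher in forebrain and midbrain than in hindbrain, with *Adar*, *Cpt1c* and *Frrs1l*, and these 4 are named after their values were seen. *Sacm1l*, a phosphoinositide phosphatase, was lower in forebrain than in hindbrain (-0.72 ± 0.11, edgeR adjusted p = 4.1e-05), and *Cnih4*, a cornichon of the early secretory pathway, was lower in midbrain than in hindbrain (-0.54 ± 0.07, edgeR adjusted p = 1.7e-05).

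Across the 18 libraries and 20362 other genes, the log2 CPM of *Gria2* was most correlated with that of *Col19a1* (Pearson r = 0.99), *Vxn* (0.98) and *Cort* (0.98), and that of *Gria4* with *Armh4* (0.99), *Mpp7* (0.98) and *Slc22a4* (0.98). For *Gria1* these were *Pja1* (0.95) and *Pygo1* (0.91), and for *Gria3* *Kcnb2* (0.93), *Nrcam* (0.93) and *Madd* (0.92). The libraries share 3 regions and 6 mice, so that the coefficients mostly describe differences between regions.

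Between the genotypes, 0 of the 10 genes passed the test in forebrain, midbrain or hindbrain, in the counts summed over the regions of each mouse, or in the interaction of genotype and region, with edgeR or with DESeq2. Over all genes tested, edgeR called 0% in forebrain, 0.00543% in midbrain, 0% in hindbrain, 0.00451% in the summed counts and 0% in the interaction, and DESeq2 0.168, 0.337, 0.349, 0.124 and 0.266%. With edgeR at an unadjusted p of 0.05, 0 of the 10 genes passed in forebrain, 2 in midbrain, 1 in hindbrain, 0 in the sums and 0 in the interaction, against 5.43, 6.17, 5.13, 3.70 and 7.54% of all genes. With DESeq2 these counts were 1, 2, 1, 0 and 1, against 6.03, 5.94, 6.45, 3.75 and 9.61%.

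**Figure D5:**
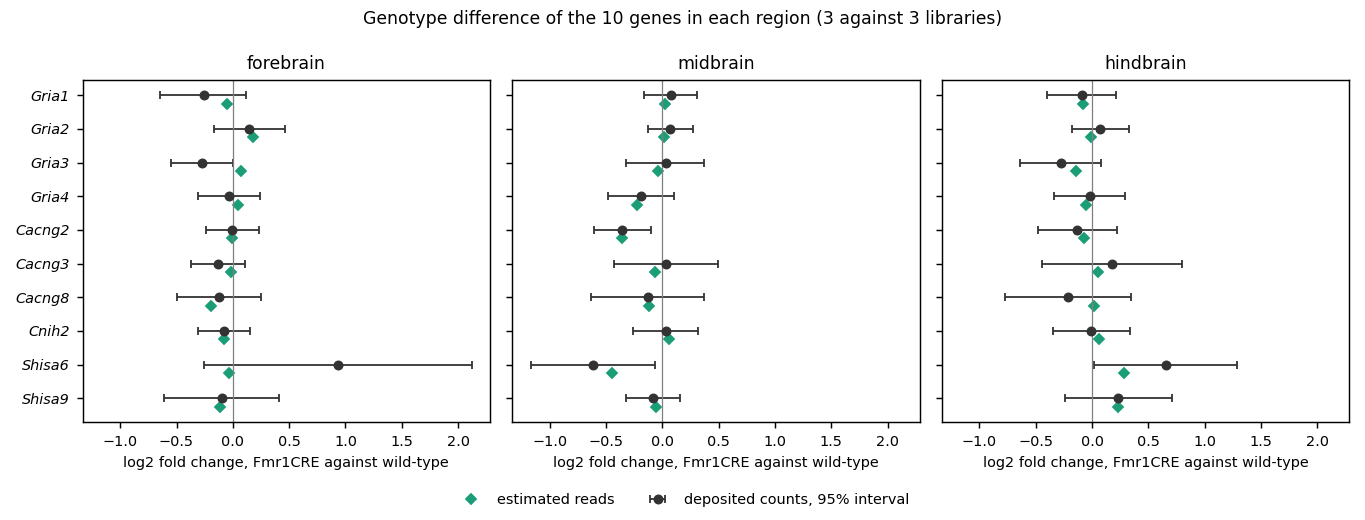
Log2 fold change of the 10 genes, Fmr1CRE against wild-type, in each region (3 against 3 libraries), as the edgeR estimate on the deposited counts with its 95% confidence interval (circles) and on the estimated reads summed per gene (diamonds). The interval leaves out 0 for *Cacng2* (-0.61 to -0.10) and *Shisa6* (-1.17 to -0.07) in midbrain and for *Shisa6* (0.02 to 1.29) in hindbrain, and none of these has an adjusted p under 0.05.

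*Cacng2* in midbrain was at 139, 133 and 115 CPM in wild-type and 88.8, 109 and 104 in Fmr1CRE mice. The genotypes did not overlap, as for 11.3% of all genes there. The log2 fold change was -0.36 ± 0.11 (SE, unadjusted p = 0.0119, edgeR adjusted p = 0.770), and -0.36 with estimated reads. Midbrain of Fmr1CRE replicate 1, the lowest value, was also the lowest midbrain library in the sum of excitatory neuron markers, whose part was not tested. Leaving out 1 mouse at a time gave -0.43 to -0.28.

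The estimates for *Shisa6* had opposite signs in midbrain and hindbrain. In midbrain it was at 71.3, 73.9 and 43.1 CPM in wild-type and 30.5, 50.3 and 41.6 in Fmr1CRE mice (-0.62 ± 0.24 SE, unadjusted p = 0.0322, edgeR adjusted p = 0.805), and in hindbrain at 17.4, 25 and 38.7 in wild-type and 40.9, 52.0 and 35.1 in Fmr1CRE mice (0.66 ± 0.27, unadjusted p = 0.0440, edgeR adjusted p = 0.875). Both pairs of groups overlapped by deposited counts. With estimated reads the log2 fold change was -0.45 in midbrain (edgeR unadjusted p = 0.129) and 0.28 in hindbrain (edgeR unadjusted p = 0.0577). In forebrain the levels were 12.8, 13.8 and 6.73 against 9.95, 12.9 and 40.0, a log2 fold change of 0.93 ± 0.51 that was -0.17 without the replicate 3 libraries and -0.03 with estimated reads. The interaction of genotype and region for *Shisa6* had an unadjusted p of 0.0532 (edgeR adjusted p = 0.660), the lowest of the 10 genes.

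For *Gria3* the forebrain libraries lay at 207, 199 and 163 CPM in wild-type and 154, 152 and 154 in Fmr1CRE mice, without overlap, as for 10.2% of all genes in forebrain. The log2 fold change of -0.27 ± 0.12 (SE) had an unadjusted p of 0.0501 (edgeR adjusted p = 0.806). By estimated reads the levels were 176, 178 and 171 against 184, 176 and 176 CPM, and the difference was 0.07. Without the replicate 3 libraries it was -0.36 (adjusted p = 0.314). In hindbrain *Gria3* did not overlap between the genotypes when scaled within that region, as for 10.9% of all genes, though on the common scale the groups met (100, 101 and 147 CPM against 101, 91.4 and 95.5), and the log2 fold change was -0.28 ± 0.16 (edgeR adjusted p = 0.875).

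The remaining genes had smaller estimates. For *Gria1* the log2 fold change was -0.26 in forebrain (95% interval -0.65 to 0.12), 0.08 in midbrain (-0.16 to 0.31) and -0.09 in hindbrain (-0.40 to 0.21), and for *Gria2* 0.14 (-0.17 to 0.46), 0.07 (-0.13 to 0.27) and 0.07 (-0.18 to 0.33). *Gria4* gave -0.03 (-0.31 to 0.24), -0.19 (-0.48 to 0.10) and -0.02 (-0.34 to 0.29), and *Cnih2* -0.08 (-0.31 to 0.15), 0.03 (-0.26 to 0.32) and -0.01 (-0.35 to 0.34). The intervals of *Cacng3*, *Cacng8* and *Shisa9* ran from -0.77 at the lowest to 0.80 at the highest. Differences of a size within these intervals are not excluded with 3 mice per genotype.

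Without the replicate 3 libraries of both genotypes, 0 of the 10 genes were called in forebrain. Likewise 0 were called in the summed counts without the replicate 3 mice, and in the interaction without their forebrain libraries. The forebrain values without the replicate 3 libraries were -0.38 for *Gria1* (-0.26 with all libraries), 0.22 for *Gria2* (0.14) and -0.17 for *Gria4* (-0.03). Among the auxiliary genes they were 0.07 for *Cacng2* (-0.01), -0.17 for *Cacng3* (-0.13), -0.23 for *Cacng8* (-0.12), -0.04 for *Cnih2* (-0.08) and -0.31 for *Shisa9* (-0.10). Of 12 comparisons of subunit shares between genotypes 0 were called, and of 12 comparisons of flip shares likewise 0 (two-sided exact permutation tests of 3 against 3, for which the smallest possible p is 0.1). The *Gria2* share in forebrain was 49.7% ± 6.66 (SD, n = 3) in Fmr1CRE and 43.5% ± 0.614 in wild-type mice, with the highest value, 55.4%, in Fmr1CRE replicate 1. Without the replicate 3 libraries the means were 53.3 and 43.8%. The forebrain differences of Fmr1CRE minus wild-type, in percentage points, then went from -3.85 to -5.27 for the *Gria1* share, -2.46 to -3.41 for *Gria3* and 0.146 to -0.838 for *Gria4*. For the flip shares they went from -2.31 to -3.25 (*Gria1*), -1.78 to -1.83 (*Gria2*), 2.28 to 2.5 (*Gria3*) and 0.385 to 4.32 (*Gria4*). The *Gria1* flip share was 85.5% ± 3.82 and 84.1% ± 1.87 in hindbrain, 49.2% ± 2.59 and 51.6% ± 1.21 in forebrain, and 52.9% ± 3.29 and 54.5% ± 5.06 in midbrain. Within each genotype the mean *Gria1* flip share was higher in hindbrain than in forebrain, and that of *Gria4* was 69.8% ± 4.33 against 39.7% ± 2.47 in Fmr1CRE and 66.3% ± 5.37 against 39.3% ± 6.88 in wild-type mice. Of the further AMPA receptor genes in the 3 lists of 11, 9 and 21, 0 were called between genotypes in any region.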

How the data were processed

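Single-end reads of 50 bases were processed by the authors in the bcbio_nextgen pipeline. The submitters' processing notes name Salmon 0.14.0, DESeq2 1.30.1 and build mm10. The annotation and the model were not given in the sources used here. The authors deposited TPM and estimated counts per transcript for each library and a table of whole-number counts per gene. Although named raw, these gene values are expected counts made from length-scaled TPM. Values rebuilt so from the transcript files lay at most 0.166% from their column, and summed reads 3.85 to 6.48%. The design had assumed plain counts, and edgeR was kept on the whole numbers as deposited. Each transcript file was tied to the column it rebuilt (18 of 18). The deposited log2 values were not used, and 0 measured columns were left unused. The 18 libraries were run in 2 pools of 9, whose members are not named, so the pools could not be compared.

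Symbols, positions and exons came from GENCODE M21 (53431 of 53468 genes and 136176 of 136288 transcripts matched). edgeR 4.0.16 in R 4.3.3 was used on the deposited counts with TMM normalization, filterByExpr and Benjamini-Hochberg adjustment, in 1 fit of all libraries for regions and within each region for genotypes. A prior count of 2 was used for the log2 CPM of the correlations and of the comparison of pairs of mice. The regions of a mouse were treated as independent, and the fit with the mouse as a block was an alternative. Same-mouse libraries deviated from their group means with correlations of -0.17 to 0.18. Shares were compared with exact permutation tests (scipy 1.17.1). The scripts were tested on simulated counts. Replicates are separate mice. The genes and lists were chosen with earlier results of these data known. From the 3 AMPA receptor lists the text names, for each pair of regions, at most 3 called genes per direction, taken by size of change, and for each subunit the 3 genes with the highest correlation, of which 1 is not reported here. A further 4 list genes were named after their values were seen, since their count was small. DESeq2 1.42.0 and the settings of the closing section were alternatives. The sum of estimated reads per gene and the restriction to transcripts of at least 1000 bases were added after the data were seen. At these depths the libraries of a group differed by more than counting error, with a mean chi-square per gene of 12.2 to 63.8 over 18 pairs. Whether this spread came from the mice, the dissection or the quantification was not tested.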

Additional observations from a re-analysis of the deposited data

Results flagged for a closer look

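In 84 groups of 6 libraries (a gene and a region, in CPM, CPM of estimated reads, subunit share or flip share), 7 had a highest or lowest library whose gap to the next exceeded Dixon's 95% critical value. Chance gives such a gap in about 1 in 20 groups.

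Fmr1CRE replicate 1 was the lowest forebrain library for *Cacng8*, with 30.8 CPM against 44.5 for the next, and for *Shisa9*, with 32.8 CPM against 55.5, or 31.3 against 53.1 by estimated reads. The same library had the lowest forebrain sum of excitatory neuron markers, 2471 CPM against a median of 4329, and of 7 astrocyte markers, 3330 against 5052, and their part in these values was not tested. Fmr1CRE replicate 3 was the highest forebrain library for *Shisa6*, with 40.0 CPM against 13.8, while by estimated reads it lay at 23.7 with the next at 17.1. It also had the highest forebrain sum of 10 midbrain markers, 19.6 CPM against a median of 7.37, whose part was not tested. WT replicate 3 was the highest midbrain library for *Gria4*, with 227 CPM against 186. In midbrain it also had the highest sums of 12 hindbrain markers (312 CPM against a median of 227), 6 Purkinje cell markers (1754 against 1440) and 4 Bergmann glia markers (389 against 349), whose part was not tested. It was the highest hindbrain library for *Gria3*, with 147 CPM against 101 and a subunit share of 13.9% against 10.9%. In that hindbrain library the short transcripts of *Gria3* took 33.5% of its TPM, the most of all 18 libraries, and by estimated reads it lay at 115 CPM among hindbrain libraries of 97.7 to 120.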

How the results depend on the processing

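Of 139 recomputed main counts 137 stayed within 1.5 times the value given, or at 0, and of 806 recomputed single values 737 kept their direction and their side of the threshold. The exceptions among the counts were the members called between forebrain and midbrain with Fmr1CRE libraries only (2), and the flip comparisons between regions with the library of the sample record (0), under which *Gria1* gave 1.02 (forebrain against hindbrain) and 2.00 (midbrain against hindbrain) percentage points, *Gria2* -1.24, 1.87 (forebrain against midbrain) and -3.11, *Gria3* -1.13 (forebrain against midbrain) and 1.67 (midbrain against hindbrain), and *Gria4* 1.93 and 2.76, since those records mix the regions. Signs also changed for *Gria3* between forebrain and midbrain with wild-type libraries only (0.04) or estimated reads (0.06), for *Cacng8* there with estimated reads (-0.02) or without WT replicate 3 (range with 1 mouse left out -0.03 to 0.16), for *Cacng2* (0.05, wild-type only) and *Shisa6* (-0.10, Fmr1CRE only) between midbrain and hindbrain, and for the forebrain genotype difference of *Gria3* (0.07, estimated reads) and *Shisa6* (-0.17 without the replicate 3 libraries, -0.03 with estimated reads). The cause was not tested. Each of these had no call except the flip shares. *Cacng2* between forebrain and midbrain (adjusted p = 0.0309) and *Shisa6* between midbrain and hindbrain (adjusted p = 0.0402) gained a call without WT replicate 3. With 1 mouse left out, the members called ranged from 8 to 10 (forebrain against hindbrain), 4 to 6 (forebrain against midbrain) and 8 to 9 (midbrain against hindbrain), the subunit share comparisons stayed at 10, and the flip comparisons ranged from 8 to 9, with the *Gria3* difference between forebrain and hindbrain, which was not called, at -0.334 to 1.20. Share tests between genotypes (0 called) are left out of the counts above, since 3 against 3 libraries or fewer cannot pass the threshold. With total counts in place of TMM the median of all genes moved from -0.01 to -0.15 between forebrain and hindbrain and from -0.03 to -0.11 between midbrain and hindbrain, and the higher share of calls from 51.1 to 38.9% and from 51.2 to 44.1% (48.5 to 32.2% between forebrain and midbrain), with 10, 8 and 5 members called. The replicate block by mouse gave 10, 5 and 8 members called for forebrain against hindbrain, forebrain against midbrain and midbrain against hindbrain, 9 subunit share comparisons (without *Gria3*, midbrain against hindbrain) and 8 flip share comparisons (without the same one of *Gria3*). Replicate numbers pair the genotypes by number alone (correlations of deviations -0.12 to 0.07), and a block on them gave 0 members called in each region. The spread between the libraries of a group, more than counting error, limits these comparisons.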
